A study of Homo sapiens with 12 samples.

Results

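The genes described here are HSPA5, HSP90B1, CALR, CANX, PDIA3, PDIA4, PDIA6, DNAJB9, HERPUD1 and XBP1, which encode chaperones and folding helpers of the endoplasmic reticulum (ER) and a transcription factor of the unfolded protein response. They were taken by symbol, and all 10 were found among the 28008 genes of each count table and passed the filter on low counts in both lines. RNA-seq libraries came from QGP-1 and BON-1, established lines of human pancreatic neuroendocrine tumors (pNETs), which both carried tet-MUC1shRNA, a short hairpin RNA against MUC1 that doxycycline (DOX) switches on. Cells of each line received a DMSO vehicle or 500 ng/ml DOX for 7 days, giving 4 groups of 3 libraries from triplicate cultures and 12 libraries in all. No library with DOX and a control hairpin was analysed here, so exposure to DOX and loss of MUC1 cannot be told apart. All libraries carried the same hairpin, so any effect of it on other genes cannot be told apart from these either. Whether each line was 1 clone was not given in the sources used here.

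The ER folds secreted and membrane proteins, of which neuroendocrine cells make large amounts as hormones and granule proteins. When unfolded proteins accumulate, the sensors IRE1 (encoded by ERN1), PERK (EIF2AK3) and ATF6 start the unfolded protein response. IRE1 splices the XBP1 transcript into the form that encodes an active factor, and this factor together with cleaved ATF6 raises transcription of chaperone, folding and degradation genes. Counts per gene do not separate spliced from unspliced XBP1 transcripts, so the XBP1 values below are levels of all its RNA.

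Matches to the ER stress response element in the promoters of these genes are shown first because it is the sequence through which ATF6 and XBP1 are known to act. The RefSeq promoter windows of build GRCh38.p14, from 250 bases before to 50 bases after the start, matched 9 of the 10 genes (not PDIA3). The element (ERSE) was searched on both strands as CCAAT, any 9 bases and CCACG, and a second form (ERSE-II) as ATTGG, any 1 base and CCACG. The ERSE letters stood in the windows of 6 genes, HSPA5, HSP90B1 (at 2 places), XBP1, CALR, CANX and PDIA6, against 0.0916% of all genes with a window (25 of 27305). ERSE-II letters stood in the HERPUD1 window, against 0.0696% of all genes (19 of 27305). The 25 genes include the 6 named here and the 19 include HERPUD1, and no test of these shares was made. No member window held TGACGTGG, the core of the unfolded protein response element, which 0.927% of all genes held. Each sequence is written 5′ to 3′ along the strand of its gene with 5 flanking bases on each side, and capitals mark the fixed ends of the element, which read in reverse complement in the second HSP90B1 site and in CALR.
HSPA5: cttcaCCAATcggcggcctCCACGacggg
HSP90B1, first site: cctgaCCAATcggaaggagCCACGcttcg
HSP90B1, second site: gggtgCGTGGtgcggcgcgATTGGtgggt
XBP1: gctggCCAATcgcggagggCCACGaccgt
CALR: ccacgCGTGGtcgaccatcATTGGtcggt
CANX: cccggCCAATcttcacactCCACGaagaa
PDIA6: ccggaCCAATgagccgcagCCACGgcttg
HERPUD1: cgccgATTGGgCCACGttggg

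These stretches lie at chr9:125241386-125241414 on the minus strand for HSPA5, chr12:103930211-103930239 and chr12:103930316-103930344 on the plus strand for HSP90B1, chr22:28800598-28800626 on the minus strand for XBP1, chr19:12938379-12938407 on the plus strand for CALR, chr5:179698773-179698801 on the plus strand for CANX, chr2:10812848-10812876 on the minus strand for PDIA6 and chr16:56932020-56932040 on the plus strand for HERPUD1. The element nearest its start was that of XBP1, from 52 to 34 bases before it, and the farthest was that of CALR, from 225 to 207 bases before it. In HSPA5 the element spanned 66 to 48 bases before the start. The HSP90B1, CANX and PDIA6 elements lie inside the wider gene spans that GENCODE gives for longer transcripts, while the HSPA5, XBP1, CALR and HERPUD1 elements lie upstream of the annotated gene. A match of letters is a description of the sequence and was not tested for binding.

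Libraries held 38224144 to 50525926 counts on genes in QGP-1 and 15981954 to 28484324 in BON-1, and the 3 libraries of a group differed from each other by more than sampling noise. Counts were normalized to CPM, the count of a gene scaled to a common library total, with the trimmed mean of M values (TMM), and genes were called at an adjusted p below 0.05 in edgeR's quasi-likelihood test with the Benjamini-Hochberg adjustment over all genes tested. MUC1, the targeted gene, was at 7.19, 5.81 and 5.65 CPM in the QGP-1 vehicle libraries and 0.705, 1.04 and 0.744 CPM in the QGP-1 DOX libraries. In BON-1 it was at 20.6, 20.7 and 15.6 CPM with vehicle and 1.48, 2.65 and 3.97 CPM with DOX, so that every DOX library lay below every vehicle library in both lines. Of 10 neuroendocrine markers, 2 rose and 0 fell in QGP-1, where NEUROD1 had no count in any library, and 1 rose and 3 fell in BON-1, CHGA among them. Their summed level moved from between 4949 and 5609 CPM to between 5452 and 5915 CPM in QGP-1, and from between 11159 and 14552 CPM to between 8484 and 9098 CPM in BON-1. The BON-1 sum was moved most by CHGA, which went from a mean of 8104 to 2936 CPM. SCG2, the marker that rose in BON-1, went from 2698 to 3686 CPM. Of 4 leukocyte markers 1 rose in each line, LYZ in QGP-1 and CD68 in BON-1, with the sum moving from 10.5 to 12.9 CPM up to 16.9 to 21.0 CPM in QGP-1 and from 26.0 to 28.0 CPM up to 51.7 to 57.4 CPM in BON-1, while PTPRC and CD3E had at most 9 counts in any library. Acinar markers fell for 1 of 3 in QGP-1 (sum from 82.5 to 151 CPM down to 28.9 to 40.01 CPM) and 2 of 3 in BON-1 (from 36.0 to 45.9 CPM down to 19.6 to 27.0 CPM), while of 6 fibroblast markers 1 fell in QGP-1 and 1 rose in BON-1, with sums of at most 14.2 CPM, and of 3 endothelial markers 0 were called in either line, with sums of at most 1.48 CPM. The part of these markers in the results below was not tested.

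HSPA5 moved in opposite directions with DOX in the 2 lines, and the other genes were called in 1 line or in none. In QGP-1, HSPA5 rose, XBP1 fell, and the other 8 genes were not called. In BON-1, HSPA5, CALR, PDIA3 and PDIA4 fell, DNAJB9 rose, and the other 5 were not called. Calls were frequent in both lines, at 35.0% of all genes tested in QGP-1 (17.7% lower and 17.3% higher) and 35.3% in BON-1 (18.3% lower and 17.0% higher), so the 2 calls among 10 in QGP-1 were a lower share than among all genes, and the 4 lower calls in BON-1 were a higher share than the 18.3% of all genes. The median log2 fold change of the 10 genes was -0.02 in QGP-1 and -0.18 in BON-1, beside -0.01 in both lines for all genes tested. With scaling to library size alone the BON-1 calls became 7 lower and 0 higher.

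**Figure D1:**
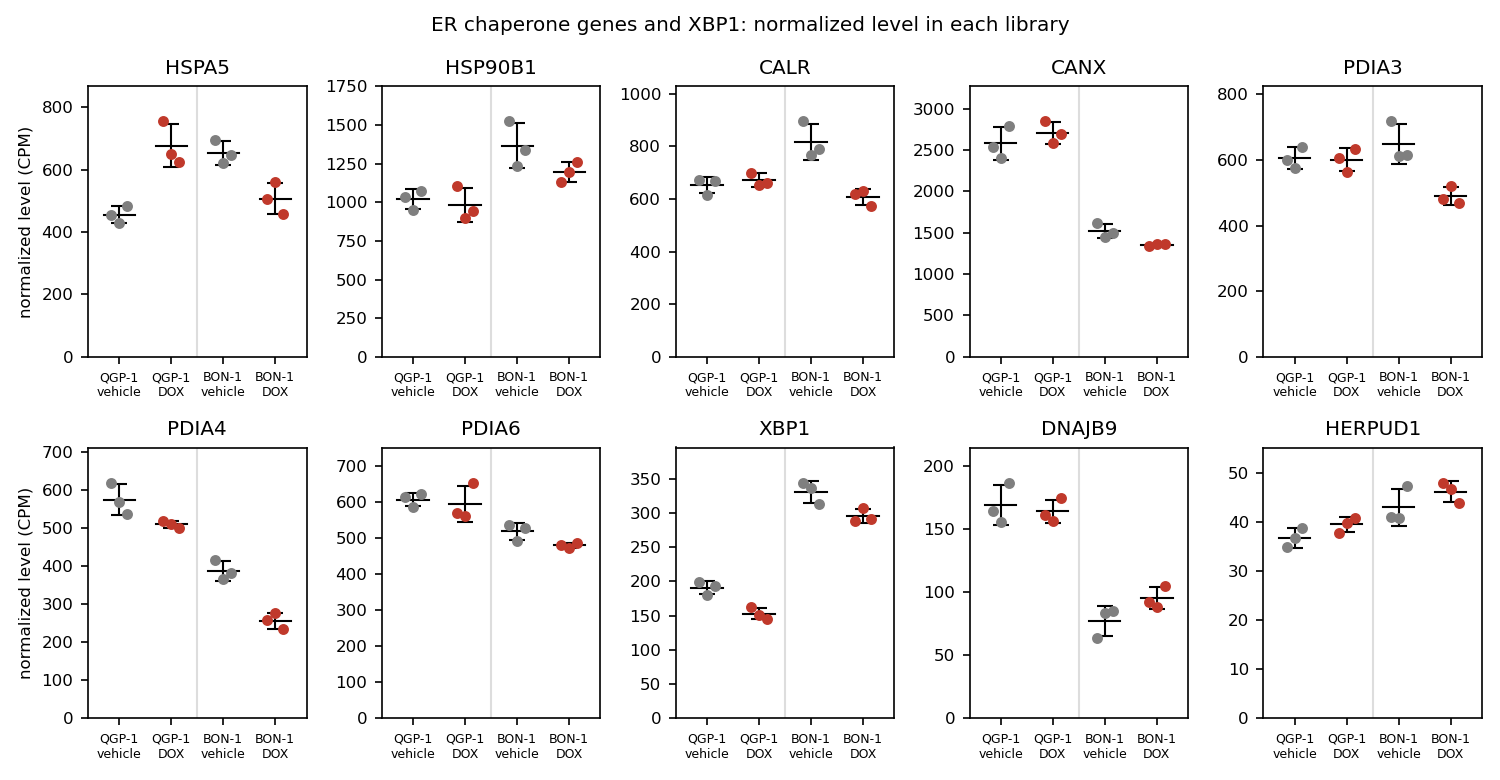
Normalized level (CPM, linear axis from 0) of each of the 10 genes in the 12 libraries, with vehicle in grey and DOX in red; lines and bars are the mean and SD of 3 libraries. HSPA5 lies higher with DOX in QGP-1 and lower with DOX in BON-1, without overlap in either line.

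HSPA5 encodes BiP, the Hsp70 chaperone of the ER lumen, which also binds the stress sensors. In QGP-1 it was at 456, 428 and 484 CPM with vehicle and at 756, 651 and 624 CPM with DOX. In BON-1 it was at 696, 621 and 646 CPM with vehicle and at 507, 559 and 458 CPM with DOX. Every DOX library was above every vehicle library in QGP-1 and below every vehicle library in BON-1. The log2 fold change was 0.57 ± 0.08 (SE, n = 3 and 3) in QGP-1 (48.5% higher, edgeR adjusted p = 0.000108) and -0.37 ± 0.08 in BON-1 (edgeR adjusted p = 0.000984). The difference between the 2 responses, tested in 1 fit of all 12 libraries, was -0.93 ± 0.12 on the log2 scale (95% interval -1.18 to -0.67, edgeR adjusted p = 9.96e-06). By this test 4 of the 10 genes (HSPA5, CALR, PDIA3 and PDIA4) had a lower response in BON-1 than in QGP-1 and 0 a higher one, beside 16.7% of all genes tested in either direction, 7.92% lower and 8.80% higher. Scaling to library size alone moved those numbers from 1315 lower and 1461 higher to 1823 lower and 1123 higher. HSPA5 had the same 3 calls in each fit that left out 1 library, with the difference between -1.04 and -0.87. Bulk libraries cannot tell less RNA per cell from fewer cells that make it, here or for the genes below.

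HSP90B1 encodes GRP94, the Hsp90 of the ER lumen, which folds a narrower set of client proteins after BiP. QGP-1 libraries held it at 1035, 948 and 1075 CPM with vehicle and 1106, 899 and 944 CPM with DOX, with overlapping groups and a log2 fold change of -0.05 ± 0.08. BON-1 libraries held it at 1524, 1237 and 1336 CPM with vehicle and 1135, 1196 and 1263 CPM with DOX, where the highest DOX value lay above the lowest vehicle value. The BON-1 log2 fold change of -0.19 ± 0.09 missed the threshold (edgeR adjusted p = 0.0925). It passed without BON-1 vehicle replicate 2, at -0.26 (edgeR adjusted p = 0.0329), and without BON-1 DOX replicate 3, at -0.25 (edgeR adjusted p = 0.0364), and also with scaling to library size alone, at -0.23 (edgeR adjusted p = 0.0232), and with no filter on low counts, at -0.21 (edgeR adjusted p = 0.0321). The 2 lines differed by -0.13, with an interval from -0.40 to 0.14, which includes 0 as well as the difference found for PDIA3. HSP90B2P, a processed pseudogene of HSP90B1 that may share reads, had at most 178 counts in a QGP-1 library and 132 in a BON-1 library. UQCC6 overlaps HSP90B1 by 13169 bases on the opposite strand and was not among the counted genes under that symbol.

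CALR and CANX encode calreticulin and calnexin, the lectin chaperones that hold newly made glycoproteins until they fold. CALR was at 672, 617 and 667 CPM in QGP-1 with vehicle and at 701, 653 and 661 CPM with DOX, with overlapping groups. In BON-1 it was at 896, 768 and 791 CPM with vehicle and at 620, 630 and 574 CPM with DOX. The BON-1 groups did not overlap, whereas those of QGP-1 overlapped in part. CALR fell by 0.43 on the log2 scale in BON-1 (SE 0.08, edgeR adjusted p = 0.000143), against 0.04 ± 0.07 in QGP-1 (edgeR adjusted p = 0.648). The responses differed by -0.46 ± 0.11 (edgeR adjusted p = 0.0045), and this call held in each of the 12 fits that left out 1 library.

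CANX, the membrane-bound partner of CALR, had levels of 2539, 2406 and 2793 CPM with vehicle and 2846, 2585 and 2694 CPM with DOX in QGP-1. Its BON-1 levels were 1618, 1445 and 1498 CPM with vehicle and 1339, 1365 and 1360 CPM with DOX. In BON-1 all DOX libraries lay below all vehicle libraries, but the log2 fold change of -0.17 ± 0.08 missed the threshold (edgeR adjusted p = 0.114). DESeq2 called it at -0.16 (adjusted p = 0.0404), as did edgeR with scaling to library size alone at -0.21 (adjusted p = 0.0216). The difference from the QGP-1 value of 0.07 was -0.23, with an interval from -0.46 to 0.01.

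PDIA3, PDIA4 and PDIA6 encode protein disulfide isomerases (ERp57, ERp72 and P5), which form and rearrange disulfide bonds, and ERp57 works with calreticulin and calnexin on glycoproteins. PDIA3 was at 599, 576 and 641 CPM with vehicle and at 607, 563 and 634 CPM with DOX in QGP-1. In BON-1 it was at 718, 613 and 614 CPM with vehicle and at 482, 521 and 469 CPM with DOX. The QGP-1 groups covered nearly the same range and the BON-1 groups did not overlap. PDIA3 fell by 0.40 on the log2 scale in BON-1 (SE 0.08, edgeR adjusted p = 0.000309), and its QGP-1 value was -0.01 ± 0.07 (edgeR adjusted p = 0.933). The difference of -0.38 ± 0.11 passed the threshold (edgeR adjusted p = 0.023), but not without QGP-1 vehicle replicate 2, at -0.35 (edgeR adjusted p = 0.0646), or without QGP-1 DOX replicate 3, at -0.34 (edgeR adjusted p = 0.0596). PDIA3P1, a transcribed processed pseudogene of PDIA3, had at most 1356 counts in a QGP-1 library and 755 in a BON-1 library, so some reads may be shared, and ELL3 and CATSPER2P1 overlap PDIA3 on the opposite strand.

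PDIA4 had the most negative log2 fold change of the 10 genes in BON-1. Its levels were 415, 365 and 381 CPM with vehicle and 258, 276 and 234 CPM with DOX in BON-1, and 618, 567 and 537 CPM with vehicle and 518, 509 and 501 CPM with DOX in QGP-1. All DOX libraries lay below all vehicle libraries in both lines. PDIA4 fell by 0.59 on the log2 scale in BON-1 (SE 0.08, edgeR adjusted p = 1.17e-06). The QGP-1 value of -0.17 ± 0.07 missed the threshold (edgeR adjusted p = 0.0617) and passed it in DESeq2, at -0.17 (adjusted p = 0.0489), and without QGP-1 vehicle replicate 3, at -0.22 (edgeR adjusted p = 0.0259). The responses differed by -0.41 ± 0.11 (edgeR adjusted p = 0.0116), a call that held in each fit that left out 1 library.

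PDIA6 was not called in either line. It was at 615, 586 and 622 CPM with vehicle and 571, 562 and 654 CPM with DOX in QGP-1, and at 538, 492 and 528 CPM with vehicle and 480, 474 and 487 CPM with DOX in BON-1. The BON-1 groups did not overlap, with a log2 fold change of -0.11 ± 0.08 (edgeR adjusted p = 0.261), and the QGP-1 value was -0.03 ± 0.07. The difference between lines was -0.07, with an interval from -0.29 to 0.14. ATP6V1C2 overlaps PDIA6 on the opposite strand and had at most 366 counts in a QGP-1 library and 40 in a BON-1 library.

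XBP1, the factor whose spliced form drives ER chaperone genes, was the member that fell in QGP-1. It was at 199, 180 and 193 CPM with vehicle and at 162, 151 and 146 CPM with DOX in QGP-1, and at 344, 337 and 313 CPM with vehicle and 288, 307 and 291 CPM with DOX in BON-1. All DOX libraries lay below all vehicle libraries in both lines. The log2 fold change was -0.32 ± 0.07 in QGP-1 (edgeR adjusted p = 0.0028) and -0.16 ± 0.07 in BON-1 (edgeR adjusted p = 0.0881). The 2 responses were not shown to differ (0.16, interval -0.05 to 0.38, edgeR adjusted p = 0.307). In QGP-1, HSPA5 rose in the same libraries in which XBP1 RNA fell.

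**Figure D2:**
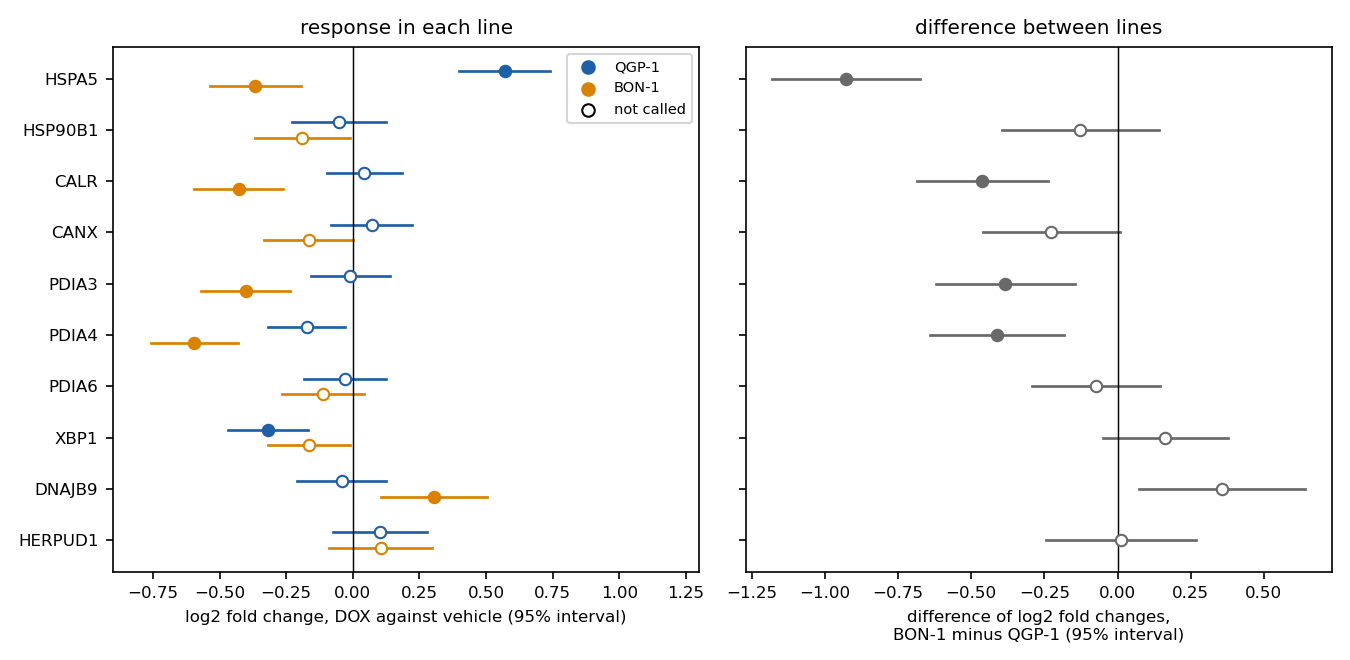
Left, log2 fold change of DOX against vehicle with its 95% interval for each gene in QGP-1 (blue) and BON-1 (orange), and right, the difference of the 2 responses with its 95% interval; filled points passed an adjusted p below 0.05 and open points did not. HSPA5, CALR, PDIA3 and PDIA4 are filled on the right, all below 0, with HSPA5 the lowest at -0.93.

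DNAJB9 and HERPUD1 are targets of the unfolded protein response that act beside the chaperones: DNAJB9 (ERdj4) is a J-domain cochaperone of BiP that restrains IRE1, and HERPUD1 is a membrane protein of the complex that sends misfolded proteins to degradation. DNAJB9 was at 63.7, 83.8 and 85.0 CPM with vehicle and at 92.6, 88.5 and 105 CPM with DOX in BON-1, and at 165, 156 and 187 CPM with vehicle and 162, 157 and 175 CPM with DOX in QGP-1. All BON-1 DOX libraries lay above the vehicle libraries, while the QGP-1 groups overlapped. DNAJB9 rose by 0.30 ± 0.10 on the log2 scale in BON-1 (edgeR adjusted p = 0.0156), against -0.04 ± 0.08 in QGP-1. This call was lost without BON-1 vehicle replicate 1, at 0.18 (edgeR adjusted p = 0.147), without BON-1 DOX replicate 3, at 0.21 (edgeR adjusted p = 0.128), and with scaling to library size alone, at 0.26 (edgeR adjusted p = 0.0662). The difference between lines was 0.36 (interval 0.07 to 0.64) and missed the threshold after adjustment (edgeR adjusted p = 0.0771).

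HERPUD1 was not called in either line, at 34.9, 36.7 and 38.8 CPM with vehicle and 37.9, 39.9 and 40.8 CPM with DOX in QGP-1. BON-1 libraries held it at 41.0, 40.8 and 47.4 CPM with vehicle and 48.0, 46.7 and 44.0 CPM with DOX. The groups overlapped in both lines, and the log2 fold change was 0.10 ± 0.08 in QGP-1 and 0.10 ± 0.09 in BON-1. The difference between lines was 0.01, with an interval from -0.25 to 0.27.

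Groups that did not overlap were more frequent than calls in both lines, for the 10 genes and for all genes tested. Of all genes, 35.3% were called in BON-1 and 35.0% in QGP-1. In BON-1, 7 of the 10 genes had every DOX library below every vehicle library and 1 had every DOX library above, beside 23.9% and 22.4% of all genes tested (46.3% in either direction). In QGP-1 the numbers were 2 below and 1 above, beside 23.2% and 23.5% of all genes (46.7% in either direction). The 10 genes together took 0.651% to 0.713% of all counts with vehicle and 0.687% to 0.735% with DOX in QGP-1. In BON-1 they took 0.626% to 0.678% with vehicle and 0.512% to 0.539% with DOX, so that the BON-1 shares did not overlap and the QGP-1 shares did.

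Levels can be compared between genes only per length, so CPM was divided by each gene's length relative to HSPA5, with lengths taken from the ratio of the authors' counts to their TPM values. In QGP-1 with vehicle the order of this length-adjusted CPM was CANX (2037 ± 155, SD, n = 3), CALR (1481 ± 68.8), HSP90B1 (1458 ± 92.9), PDIA3 (806 ± 43.7), PDIA4 (794 ± 56.7), PDIA6 (702 ± 22.1), XBP1 (459 ± 23.1), HSPA5 (456 ± 28.2), DNAJB9 (277 ± 26.1) and HERPUD1 (83.0 ± 4.50). Neighbours whose libraries overlapped, and so have no settled order, were CALR and HSP90B1, PDIA3 and PDIA4, and XBP1 and HSPA5. In BON-1 with vehicle the order was HSP90B1 (1954 ± 209), CALR (1857 ± 154), CANX (1201 ± 70.0), PDIA3 (863 ± 80.0), XBP1 (796 ± 39.1), HSPA5 (654 ± 38.0), PDIA6 (599 ± 28.0), PDIA4 (535 ± 35.3), DNAJB9 (127 ± 19.6) and HERPUD1 (97.1 ± 8.51). There the libraries of HSP90B1 and CALR, PDIA3 and XBP1, PDIA6 and PDIA4, and DNAJB9 and HERPUD1 overlapped. With DOX, HSPA5 was at 677 ± 69.4 in QGP-1, with every library above those of XBP1, and at 508 ± 50.9 in BON-1, where its libraries overlapped those of PDIA6. The 2 lines are separate tables and cultures in different media, and their levels were not tested against each other.

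**Figure D3:**
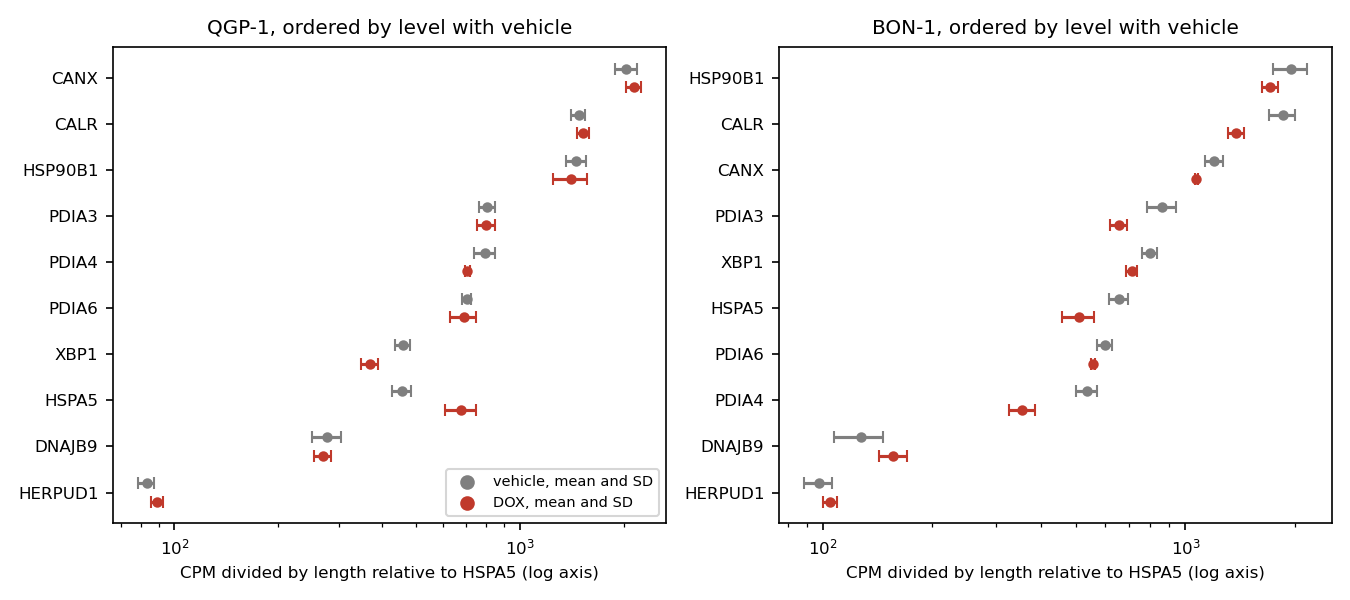
Length-adjusted level (CPM divided by gene length relative to HSPA5, log axis) of the 10 genes in QGP-1 (left) and BON-1 (right), as mean and SD of 3 libraries with vehicle (grey) and DOX (red), ordered by the vehicle mean. HERPUD1 is at the bottom in both lines, and HSPA5 passes XBP1 with DOX in QGP-1.

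The likeness of other genes to HSPA5 was measured as Pearson's r of log2 CPM over the 12 libraries, after removing the mean of each line, among 9013 genes. The points share their libraries, and the pattern includes the rise of HSPA5 in QGP-1 and its decline in BON-1, so r is a description. The 10 most alike were TGFB3 (r = 0.962), PAM (0.951), ISG20L2 (0.950), DDC (0.950), MARCKSL1 (0.948), TGFBI (0.946), ID3 (0.939), NORAD (0.937), OCLN (0.933) and PDZD8 (0.932), and the 5 most opposite were IL1R1 (-0.958), COA6 (-0.946), COBL (-0.941), PPARGC1A (-0.934) and PDE4B (-0.934). PAM encodes the enzyme that amidates peptide hormones and DDC the decarboxylase that makes serotonin and dopamine. Within the chaperone genes r was 0.728 for CANX, 0.656 for CALR, 0.534 for PDIA3, 0.331 for HSP90B1, 0.326 for PDIA4, 0.116 for PDIA6, 0.114 for HERPUD1, -0.309 for XBP1 and -0.507 for DNAJB9, beside a median of 0.0495 over all 9013 genes. With the mean of each group removed instead, so that only the spread among replicates was left, r was 0.817 for CALR, 0.717 for XBP1, 0.673 for CANX, 0.596 for PDIA3, 0.595 for HSP90B1, 0.566 for PDIA4, 0.00888 for HERPUD1, -0.126 for PDIA6 and -0.399 for DNAJB9, beside a median of 0.0668. This r ran from 0.383 (PDZD8) to 0.864 (NORAD) for the 10 most alike. For the 5 most opposite it ran from -0.821 (COA6) to -0.457 (COBL). Both sets were picked by the first r over the same libraries, which includes this spread, so the second r is not a separate check of them. TGFB3, ISG20L2, NORAD and PPARGC1A were called in QGP-1 but not in BON-1.

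Of the members with an ERSE or ERSE-II in their promoter window, 1 fell (XBP1) and 1 rose (HSPA5) among 7 in QGP-1, and 2 fell (HSPA5 and CALR) and 0 rose in BON-1. Other genes with such a window split into 8 lower and 5 higher of 24 tested in QGP-1 and 10 lower and 0 higher of 23 tested in BON-1, beside 17.7% lower and 17.3% higher of all genes tested in QGP-1 and 18.3% and 17.0% in BON-1. One of these, HYOU1, which encodes the nucleotide exchange factor GRP170 of BiP and was named here after its values were seen, went from a mean of 279 to 324 CPM in QGP-1 (log2 fold change 0.22, edgeR adjusted p = 0.0191) and from 215 to 150 CPM in BON-1 (-0.52, edgeR adjusted p = 1.54e-05). Its response differed between the lines in the same direction as that of HSPA5, by -0.73 (edgeR adjusted p = 7.92e-05), and in QGP-1 it no longer passed when vehicle replicate 1 or 2 was removed, with a log2 fold change of 0.18 to 0.24 over the 6 fits that each left out 1 library. PDIA4, which had the most negative change in BON-1, and DNAJB9, which rose there, had no such letters in their windows.

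**Figure D4:**
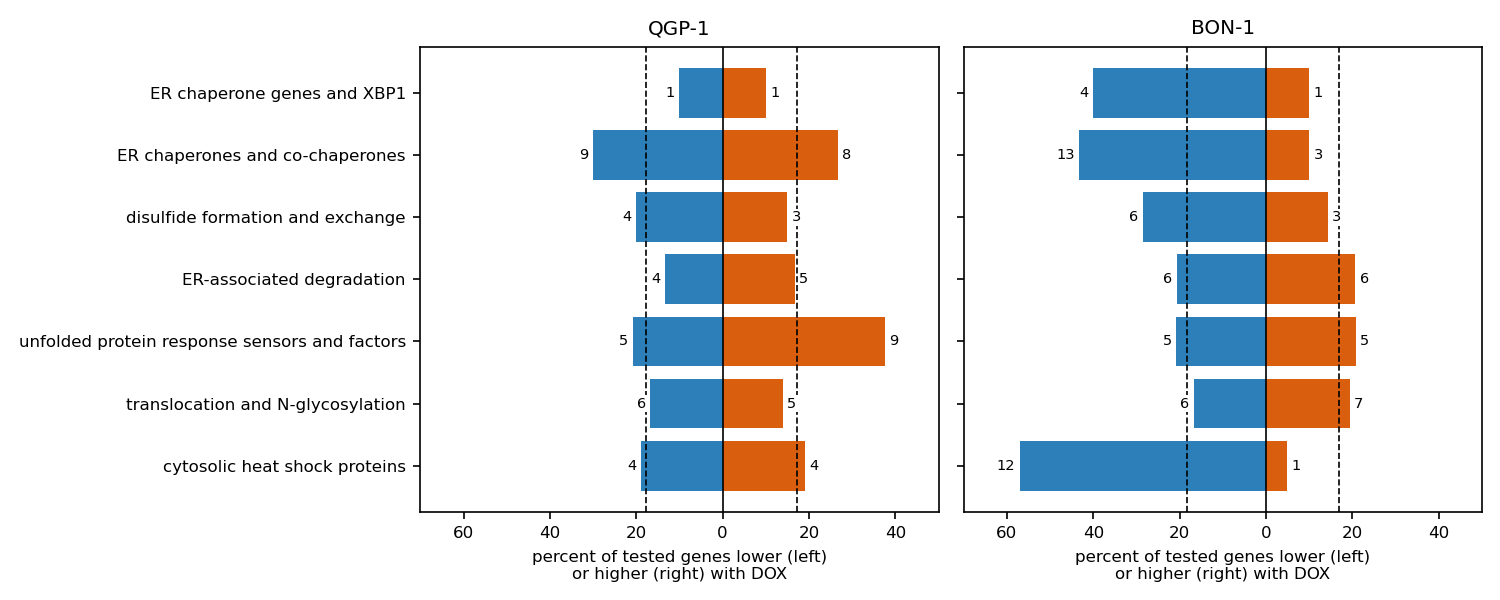
Percent of the tested genes of each list that were lower (blue, left) or higher (orange, right) with DOX in QGP-1 and BON-1, with the number of genes beside each bar; dashed lines are the percent over all genes tested. In BON-1 the bars for lower genes reach past the dashed line at 18.3% for the cytosolic heat shock proteins (57.1%) and the other ER chaperones (43.3%). They also do so for the 10 genes (40%) and for disulfide formation and exchange (28.6%). ER-associated degradation (20.7%), the unfolded protein response list (20.8%) and translocation and N-glycosylation (16.7%) lie near the line. As many genes of ER-associated degradation and of the unfolded protein response list rose as fell there.

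The wider ER folding and stress pathway was read through lists of genes outside the 10. Of 30 further ER chaperones and co-chaperones tested, 9 fell and 8 rose in QGP-1, with a median log2 fold change of -0.08, and 13 fell and 3 rose in BON-1, with a median of -0.24. These shares were 30% lower and 26.7% higher in QGP-1 and 43.3% and 10% in BON-1. Among all genes tested they were 17.7% and 17.3% in QGP-1 and 18.3% and 17.0% in BON-1. In QGP-1 the named members were FKBP14, a prolyl isomerase of collagen folding (0.95), and MLEC, a lectin of early glycans (0.57), which rose, and ERP27 (-1.56) and PPIC (-0.84), which fell. In BON-1, FKBP14 (0.62) and PPIC (0.28) rose, while SDF2L1, a BiP complex member (-0.83), and MESD, a chaperone of LDL receptor proteins (-0.56), fell, and PPIC was not called in any fit that left out 1 BON-1 library (log2 fold change 0.23 to 0.32, edgeR adjusted p from 0.0605 to 0.149). MLEC also rose in BON-1 (0.28), a call lost without vehicle replicate 2 or DOX replicate 2 (0.21 to 0.22), and MESD also fell in QGP-1 (-0.48). The number that rose was 5 without QGP-1 vehicle replicate 2, and 1 without BON-1 vehicle replicate 2 or BON-1 DOX replicate 2.

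Among genes of disulfide formation and exchange, 4 of 20 tested fell and 3 rose in QGP-1, and 6 of 21 fell and 3 rose in BON-1. The shares were 20% lower and 15% higher in QGP-1, beside 17.7% and 17.3% of all genes. In BON-1 they were 28.6% and 14.3%, beside 18.3% and 17.0% of all genes. TMX4 (-0.71) and PRDX4, a peroxiredoxin of the ER (-0.58), fell in QGP-1, and QSOX2 (-0.51) fell and TMX3 (0.50) rose in BON-1. TMX4 (-0.50) and PRDX4 (-0.28) also fell in BON-1 and QSOX2 (-0.34) in QGP-1, and the BON-1 call of PRDX4 was lost in the fit of both lines (-0.27, edgeR adjusted p = 0.071) and without vehicle or DOX replicate 2 or 3 (-0.27 to -0.22). The QGP-1 rises of PDIA5 (0.32) and VKORC1L1 (0.24) and the BON-1 changes of SELENOF (0.28) and TXNDC5 (-1.42) each lost their call when single libraries were left out. For PDIA5 these were QGP-1 vehicle replicate 2 (0.30) and DOX replicate 3 (0.24), for VKORC1L1 vehicle replicates 2 and 3 and DOX replicates 2 and 3 (0.19 to 0.22), for SELENOF BON-1 vehicle replicate 1 and DOX replicates 1 and 3 (0.15 to 0.27), and for TXNDC5 the same 3 (-1.29 to -1.02). TXNDC5 was at -2.44 without BON-1 DOX replicate 2, and was not called in the fit of both lines (-1.41, edgeR adjusted p = 0.13). Its counts were low, at 72, 44 and 37 with vehicle and 8, 31 and 6 with DOX in BON-1, and it was not tested in QGP-1. The number that rose in QGP-1 was 0 without vehicle replicate 2 or DOX replicate 3 and 1 without DOX replicate 2.

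In ER-associated degradation, the pathway HERPUD1 belongs to, 4 of 30 tested genes fell and 5 rose in QGP-1, and 6 of 29 fell and 6 rose in BON-1. Both lines stood near the share of all genes. The list had 13.3% lower and 16.7% higher in QGP-1, beside 17.7% and 17.3% of all genes. In BON-1 it had 20.7% in each direction, beside 18.3% and 17.0% of all genes. UBXN8, which tethers the p97 ATPase to the membrane, fell in both lines (-1.02 in QGP-1 and -1.14 in BON-1), as did NPLOC4, a cofactor of p97 (-0.43 and -0.79). CCDC47 (0.53) and UBE2G2, a ubiquitin-conjugating enzyme (0.39), rose in QGP-1, and FAM8A1 (0.38) and the ubiquitin ligase MARCH6 (0.34) rose in BON-1. CCDC47 also rose in BON-1 (0.23), a call lost without vehicle replicates 2 or 3 or DOX replicate 3 (0.18 to 0.22). The number that rose was 3 without QGP-1 vehicle replicate 2, and 3 without BON-1 vehicle replicate 3.

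Of 24 sensors and factors of the unfolded protein response tested, 5 fell and 9 rose in QGP-1, and 5 fell and 5 rose in BON-1. The shares were 20.8% lower and 37.5% higher in QGP-1, beside 17.7% and 17.3% of all genes. In BON-1 they were 20.8% in each direction, near the 18.3% and 17.0% of all genes. ERN1, which encodes the XBP1-splicing sensor IRE1, was at a mean of 174 CPM with vehicle and 287 CPM with DOX in QGP-1, a rise of 0.72 ± 0.07 on the log2 scale (edgeR adjusted p = 6.8e-06), and had values of 65.8 and 68.6 CPM in BON-1 (0.06 ± 0.08). Its response differed between the lines by -0.65 (edgeR adjusted p = 0.000186). CREB3L2, a membrane-bound factor related to ATF6, rose by 0.70 and CREB3L1 and CEBPB fell by 1.38 and 0.77 in QGP-1, where the CEBPB call was lost without vehicle replicate 1 (-0.66, edgeR adjusted p = 0.052) or 2 (-0.71, edgeR adjusted p = 0.0501). In BON-1 CREB3L2 (0.22) and CREB3L1 (0.27) rose and CEBPB (-0.47) fell, calls lost without vehicle or DOX replicate 2 or 3 for CREB3L2 (0.18 to 0.21) and with library size alone (0.18), without vehicle replicate 2 for CREB3L1 (0.23) and in the fit of both lines (0.28), and without vehicle replicate 1 for CEBPB (-0.36). MBTPS1 (-0.53) and MBTPS2 (-0.60), which encode the proteases that release ATF6 from the membrane, fell in BON-1, while TXNIP (0.95) and PPP1R15A (0.45) rose. MBTPS2 also fell (-0.51) and TXNIP (0.47) and PPP1R15A (0.51) also rose in QGP-1, where MBTPS1 was not called (0.14). In QGP-1 the number that fell was 3 without vehicle replicate 1, vehicle replicate 2 or DOX replicate 2. In BON-1 it was 3 without vehicle replicate 1, vehicle replicate 2 or DOX replicate 3, and the number that rose was 2 without vehicle replicate 2 and 3 without DOX replicate 2 or 3 or with library size alone.

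Genes of translocation and N-glycosylation, which bring the clients of these chaperones into the ER, stood near the share of all genes, with 6 lower and 5 higher of 36 in QGP-1 and 6 lower and 7 higher of 36 in BON-1. SRP9, of the signal recognition particle, fell in both lines (-1.55 in QGP-1 and -1.56 in BON-1). SEC61A1 (0.62) and SEC61A2 (0.46), of the translocation channel, rose and SEC11A (-0.45) fell in QGP-1, and OSTC (0.46) and SRPRB (0.43) rose and PRKCSH, the glucosidase II subunit (-0.62), fell in BON-1. SRPRB also rose (0.27) and PRKCSH also fell (-0.40) in QGP-1, and SEC61A1 (0.23) and SEC61A2 (0.41) also rose in BON-1. These calls were lost without QGP-1 vehicle replicate 2 for SRPRB (0.21), without BON-1 vehicle replicates 2 or 3 or DOX replicate 2 for SEC61A1 (0.18 to 0.22), and without BON-1 vehicle replicates 1 or 2 or DOX replicate 3 for SEC61A2 (0.27 to 0.37). The number that rose in BON-1 was 4 without vehicle replicate 2, vehicle replicate 3 or DOX replicate 3, and the number that fell there was 12 with scaling to library size alone.

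Cytosolic heat shock proteins, relatives of HSPA5 and HSP90B1 outside the ER, gave 4 lower and 4 higher of 21 in QGP-1 and 12 lower and 1 higher of 21 in BON-1. The QGP-1 shares were 19% in each direction, near the 17.7% and 17.3% of all genes. The BON-1 shares were 57.1% lower and 4.76% higher, beside 18.3% and 17.0% of all genes. HSPB1 fell in both lines (-1.39 in QGP-1 and -0.48 in BON-1), and AHSA1, a cochaperone of Hsp90, fell in BON-1 (-0.48). HSPA1A (0.43) and HSPA1B (0.35), near-identical copies whose reads may be split uncertainly, rose in QGP-1, and the HSPA1B call was lost without QGP-1 vehicle replicate 2 (0.32, edgeR adjusted p = 0.0512). In BON-1 HSPA1B fell (-0.32, edgeR adjusted p = 0.011) and HSPA1A was not called (-0.08). The fall of DNAJB4 in QGP-1 (-0.40) was lost without vehicle replicates 1 or 2 or DOX replicates 1 or 3 (-0.42 to -0.31), and the rise of HSF2 in BON-1 (0.32) without vehicle replicates 1 or 2 or DOX replicates 1 or 3 (0.25 to 0.31), with library size alone and with no filter on low counts, which leaves 0 higher. In QGP-1 the number that fell was 2 without vehicle replicate 1, vehicle replicate 2 or DOX replicate 3, and the number that rose was 1 without vehicle replicate 2.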

How the data were processed

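RNA-seq was analysed in 12 libraries, 3 per group. Libraries were stranded (TruSeq) and the authors aligned their reads to GRCh38 with STAR; the counting program, its strand setting and its treatment of reads that match several places were not given in the sources used here. The authors deposited raw counts per gene, used for all tests, and TPM values, which served only to derive relative gene lengths. Genes that passed filterByExpr (15089 in QGP-1, 14625 in BON-1, 16598 in the fit of all libraries) were scaled by TMM and tested with glmQLFTest of edgeR 4.0.16 in R 4.3.3 within each line, and as an interaction of line and DOX over all 12 libraries, with Benjamini-Hochberg adjustment; the code was tested on simulated data. Depth per library is given with the results. Alternatives were DESeq2 1.42.0, RLE factors, library size alone, other filters, a replicate block, 1 fit for both lines, a minimum log2 fold change of 1 and leaving out each library. The text names the 10 genes and MUC1, and in each list and line up to 2 genes called in each direction with the most extreme fold changes, the 10 genes most and 5 least like HSPA5 by r, and some cell type markers. HYOU1 was added after its values were seen. The genes and lists were chosen with earlier results of these data known. Samples with the same replicate number did not deviate together in each pair (r from -0.16 to 0.33 in QGP-1 and from -0.11 to 0.20 in BON-1), so numbers were not taken to pair samples. Log2 fold changes are DOX against vehicle. Positions are from GENCODE and promoters from RefSeq. Pseudogene and opposite-strand counts are from the same tables. A planned leukocyte marker is not reported here.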

Additional observations from a re-analysis of the deposited data

Results flagged for a closer look

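The response to DOX differed between the lines, by the test of the difference itself (edgeR, BON-1 minus QGP-1, log2 scale), for 4 of the 10 genes, with values of -0.93 for HSPA5, -0.46 for CALR, -0.41 for PDIA4 and -0.38 for PDIA3. Of 164 genes of the lists tested, 23 had a lower and 8 a higher response in BON-1. Among all genes tested, 7.92% had a lower and 8.80% a higher response there. Of the list genes, 9 lower and all 8 higher ones were named, by the rule for list genes except HYOU1. It was below 0 for HYOU1 (-0.73), HSPA1B (-0.66), MBTPS1 (-0.65), ERN1 (-0.65), AHSA1 (-0.50), HSPA1A (-0.50), CREB3L2 (-0.47), SEC61A1 (-0.38) and NPLOC4 (-0.35). It was above 0 for ERP27 (1.71), CREB3L1 (1.65), PPIC (1.14), HSPB1 (0.92), OSTC (0.72), FAM8A1 (0.57), TXNIP (0.49) and SELENOF (0.41). HSPA5 and 5 list genes, HYOU1 and HSPA1B among them, were called higher in QGP-1 and lower in BON-1, CREB3L1 and PPIC were called lower in QGP-1 and higher in BON-1, and CALR, PDIA3 and PDIA4 were called in BON-1 alone. Leaving out 1 library removed the call for 6 of these genes, with the range over the 12 such fits given for each. These were PDIA3 (-0.47 to -0.32) without QGP-1 vehicle replicate 2 or DOX replicate 3, AHSA1 (-0.64 to -0.41) without QGP-1 DOX replicate 2, BON-1 vehicle replicate 1 or BON-1 DOX replicate 3, and HSPA1A (-0.60 to -0.38) without QGP-1 vehicle replicate 3, QGP-1 DOX replicate 2 or BON-1 vehicle replicate 1. SEC61A1 (-0.44 to -0.33) lost it without QGP-1 vehicle replicates 2 or 3 or DOX replicate 2, and NPLOC4 (-0.42 to -0.28) without these or BON-1 vehicle replicate 1 or DOX replicate 3. SELENOF (0.27 to 0.47) kept it only without QGP-1 vehicle replicate 1, BON-1 vehicle replicates 2 or 3 or BON-1 DOX replicate 2. With all 12 libraries, the SELENOF call was also lost with RLE factors (0.40, edgeR adjusted p = 0.0504) and with library size alone (0.33, edgeR adjusted p = 0.117). Groups of 3 libraries were too small to test single libraries as outliers.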

How the results depend on the processing

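Without a minimum fold, HSPA5 in both lines, XBP1 in QGP-1, CALR, PDIA3 and PDIA4 in BON-1, and the differences of HSPA5, CALR and PDIA4 kept their direction and their side of the threshold in each alternative run. With an absolute log2 fold change of at least 1 required, the number of the 10 genes called was 0 in each direction in both lines. The number lower in QGP-1 was 2 with DESeq2, 2 with the replicate block and 1 to 2 when single libraries were left out, PDIA4 being the gene added. In BON-1 the number lower was 7 and the number higher 0 with library size alone, the number lower was 5 with no filter, and they were 4 to 5 and 0 to 1 when single libraries were left out. The number with a higher response in BON-1 was 1 with no filter and 1 with the replicate block, DNAJB9 in both, and the number with a lower response was 3 to 4 when single libraries were left out. The replicate block changed no other call of the 10 genes, but moved the translocation and N-glycosylation genes that fell in QGP-1 from 6 to 12 and the disulfide genes that rose there from 3 to 1, and not every sample correlated best with its own number. Values near 0 that were called nowhere changed sign: PDIA3 in QGP-1 was 0.00625 with library size alone, and the HERPUD1 difference was -0.0601 with library size alone and -0.0163 with no filter. When single libraries were left out, the QGP-1 values ranged from -0.137 to 0.0114 for HSP90B1, -0.052 to 0.0384 for PDIA3, -0.103 to 0.0146 for PDIA6 and -0.0983 to 0.0352 for DNAJB9, and the HERPUD1 difference from -0.0746 to 0.0612. The cause of these changes was not tested. Library size alone moved the median of all genes by -0.05 in BON-1 and -0.07 in the difference. BON-1 libraries were shallower than those of QGP-1, and with 3 libraries per group the standard errors of the 10 genes, 0.07 to 0.10, set the smallest change that could be called.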
